A study of Mus musculus with 6 samples.

Results

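A set of 34 genes of megakaryocytes and platelets was followed in mouse long-term haematopoietic stem cells (LT-HSC) with and without the transcriptional regulator Prdm16. The genes were listed by name, matched by NCBI gene ID, and kept for testing where at least 3 of 6 RNA-seq libraries reached a log2 value of 0, which is 1 CPM (counts per 1000000 reads). All 34 of the 27179 genes in the table were found and 33 passed. LT-HSC, the rare marrow cells able to rebuild all blood lineages, had been sorted as Lin-, Sca-1+, c-Kit+, CD48- and CD150+ from C57BL/6 mice of 8 to 12 weeks. The WT group was Prdm16-Mx1-Cko/Cko; +/+ and the Cko group was Prdm16-Mx1-Cko/Cko; Tg/+, so both carried the conditional Prdm16 alleles and only Cko mice carried the Mx1-Cre transgene. Both groups were given 5 pIpC injections, which switch on the interferon-responsive Mx1 promoter, and cells were taken 5 weeks later. The Mx1 promoter is active in many cell types, so deletion is not confined to stem cells. For each genotype the marrow of 5 mice was combined before the sort and collected as 3 technical replicates, so the p-values measure the spread between portions of 1 pool per genotype and not between animals.

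Megakaryocytes are the large marrow cells that shed platelets, and their genes are of interest in stem cells because part of the LT-HSC pool already transcribes a platelet programme and can feed that lineage directly. In platelets, the GPIb-IX-V complex binds von Willebrand factor at a wound, the integrin αIIbβ3 binds fibrinogen once activated, and thrombin acts through protease-activated receptors. Granules then release adhesive proteins and chemokines, and thromboxane made from arachidonic acid recruits further platelets.

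The libraries held 36747729 to 43743795 reads. Prdm16, the deleted gene, was at 40.3, 50.5 and 31.7 CPM in WT and 8.74, 9.04 and 14.7 CPM in Cko, with no overlap (log2 difference -1.93, limma adjusted p = 0.00829, and 0.065 without Cko replicate 2, 0.0599 with no low-value filter and 0.0967 with no trend in the variance). A read count over a whole gene cannot show which exons are missing. Genes of LT-HSC and of the sort gate (18 genes) summed to 4185 to 4285 CPM in WT and 4061 to 4376 CPM in Cko. Of these, 0 were called by limma, 4 had an unadjusted p below 0.05 and 0 were called by voom. The list also holds Cd48, which the sort selects against, and Itgam and Ptprc, so the sum is not of stem cell markers alone. All Cko libraries lay above all WT libraries for 5 of the 18 (8.52% of all tested genes) and below for 1 (8.01%). Marker lists of several other blood cell types summed higher in the same Cko libraries, which does not show how mature such cells were. Over all tested genes 0.407% were called higher, the share to set beside each count of higher genes that follows. Neutrophil markers summed to 310.3 to 325 CPM in WT and 1160.1 to 1361 CPM in Cko, with 11 of 15 tested genes higher. Mast cell and basophil markers summed to 13.7 to 18.4 CPM in WT and 93.9 to 107 CPM in Cko (2 of 5 tested genes higher), with Cma1, Tpsb2 and Mcpt4 at 0 reads in every library. Monocyte and macrophage markers summed to 586 to 603 CPM and 813 to 919 CPM (2 of 10 higher), erythroid markers to 63.9 to 87.0 and 109 to 116 CPM (0 of 9 called, 7 with unadjusted p below 0.05 and 0 by voom). Gene by gene, the median log2 difference of the tested markers was 3.15 for monocytes and macrophages and 3.04 for erythroid cells, more than the sums show. It was 2.88 for neutrophils and 3.79 for mast cells and basophils. All Cko libraries lay above all WT libraries for 7 of 10 monocyte and macrophage and 6 of 9 erythroid genes, and below for 1 of each. Endothelial marker sums overlapped between the groups, at 408 to 441 and 405 to 479 CPM, with Sox17 at 0 reads throughout and Cdh5 at no more than 1.35 CPM. Of 11 tested endothelial genes 0 were called and 3 had an unadjusted p below 0.05. All Cko libraries lay above all WT libraries for 3 of the 11 and below for 0. T cell marker sums overlapped too, at up to 18.1 CPM in WT and 16.6 to 21.8 CPM in Cko with Cd3e and Cd8a at 0 reads. The part of these cells in the member genes' values was not tested, and fewer or more cells of a type cannot be told apart from less or more RNA per cell in such bulk libraries.

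**Figure D1:**
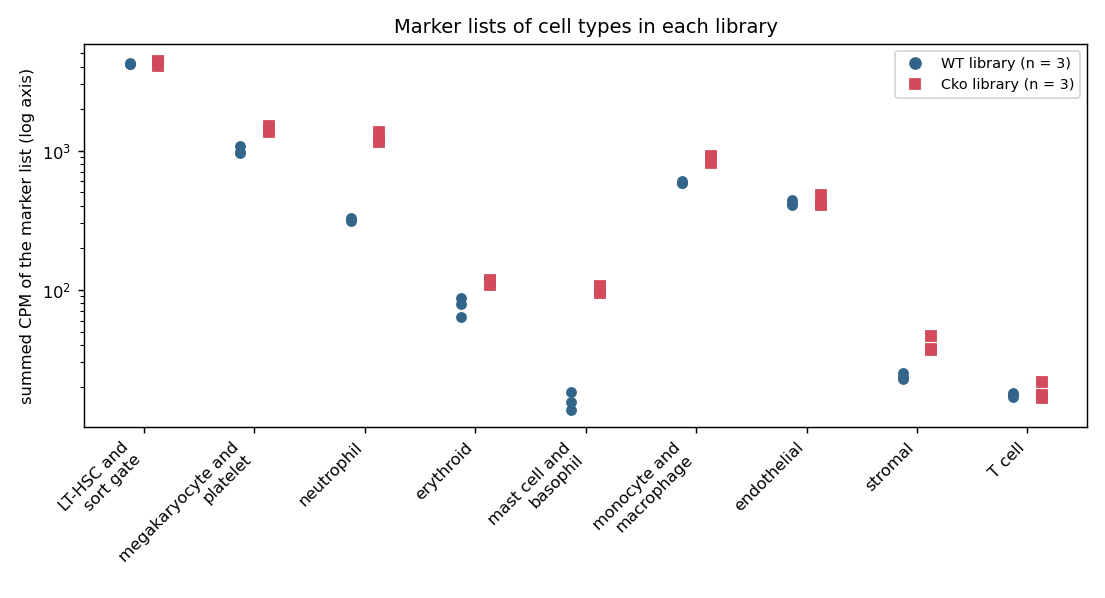
Summed CPM (log axis) of the marker genes of 9 cell types in each of 3 WT (circles) and 3 Cko (squares) libraries. The neutrophil sums are 310.3 to 325 CPM in WT and 1160.1 to 1361 CPM in Cko, and the sums of the LT-HSC and sort gate genes overlap. The megakaryocyte and platelet sums are 956 to 1073 CPM in WT and 1361 to 1495 CPM in Cko. All 12 genes of that list are members, so its sum is not separate from their values. Pf4 and Itga2b have the highest CPM in it, and 2 of its 11 tested genes were called higher (0.407% of all tested genes).

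Platelet-lineage transcripts were detected in LT-HSC of both genotypes at very unequal levels. Of 33 tested genes, 18 had a mean above 100 CPM in each group and 3 a mean below 10 CPM in each. Of the 12 genes in the megakaryocyte and platelet marker list, only Pf4 and Itga2b were among the 18. The share of all tested genes above 100 CPM was not counted. Of the 33 tested genes, 5 were higher in Cko (Treml1, Serpine2, Slc14a1, Plek and Pf4) and 1 was lower (Thbs1), by limma across all genes at adjusted p below 0.05, and 27 were not called. Over all 13018 tested genes, 0.407% were called higher and 0.292% lower. All Cko libraries lay above all WT libraries for 14 tested members, where 8.52% of all tested genes did so, and below them for 2 members (Thbs1 and Fyb), where 8.01% of all tested genes did so. The median log2 difference was 0.25 over the tested members and 0.003 over all tested genes, and 22 members had a positive value and 11 a negative one. At an unadjusted p below 0.05 there were 15 of 33 members, against 10.3% of all tested genes. The list was drawn up with earlier results of these libraries known, so the counts describe it and are not independent evidence of its direction.

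**Figure D2:**
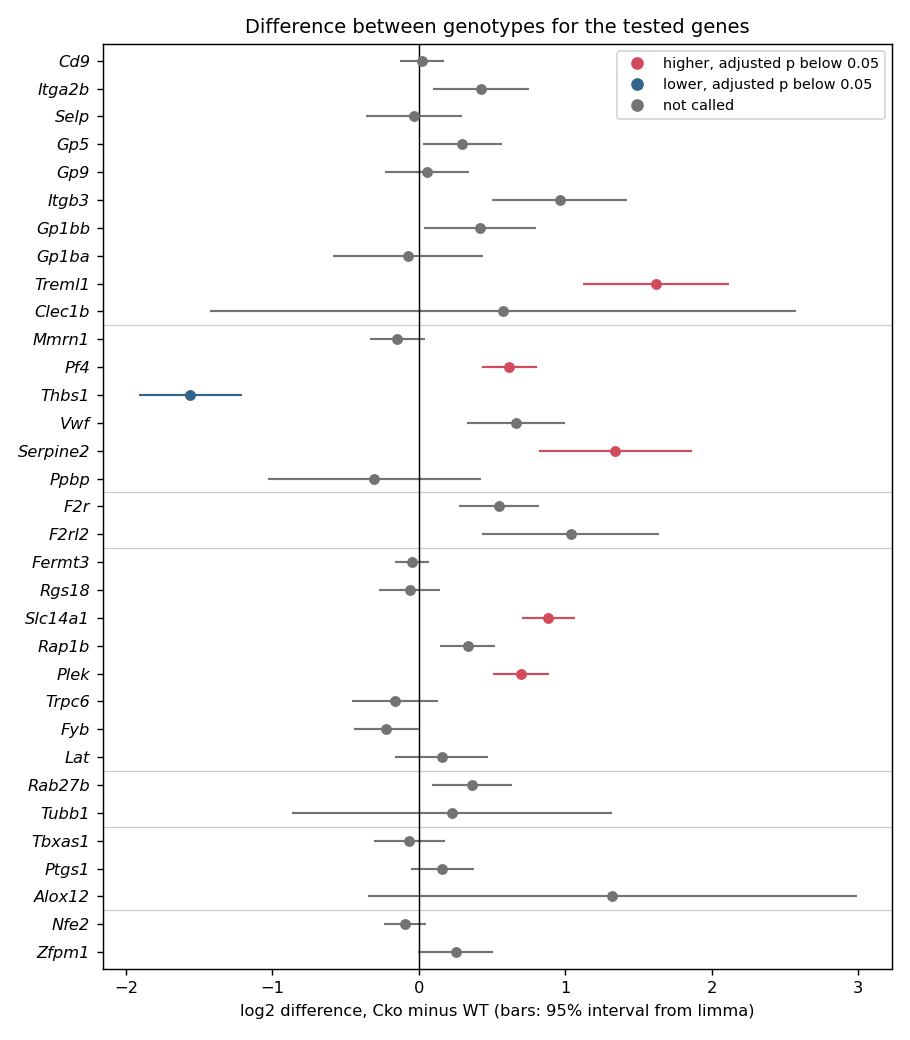
Log2 difference between Cko and WT (x axis) for the 33 tested genes, ordered by role, with 95% intervals from limma. The 5 genes called higher range from 0.62 (Pf4) to 1.62 (Treml1) and Thbs1 is at -1.56, while Clec1b, Alox12 and Tubb1 have the widest intervals.

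Per kilobase of exon, the most abundant member in WT was Pf4 at 550.4 CPM per kb, followed by Fermt3 (386), Nfe2 (339), Cd9 (286) and Rgs18 (202). In Cko, Pf4 stood at 846 CPM per kb and the other 4 at 374, 317, 290.3 and 193. A broad middle band ran in WT from Mmrn1 at 92.3 through Itga2b at 87.2, Gp9 at 87.1 and F2r at 72.2 down to Slc14a1 at 56.0. At the low end were Tubb1 (2.35), Clec1b (2.26) and Alox12 (0.658), and Gp6 was at 0. Ppbp (9.32 CPM per kb) and Tubb1, which are abundant transcripts of mature platelets, were far below Pf4 on this per-length scale. At the edge of the filter, Clec1b was retained with 3.71, 0.678 and 3.00 CPM in WT and 0.947, 7.66 and 3.46 CPM in Cko. Gp6, which encodes the collagen receptor glycoprotein VI, fell outside it with reads in Cko replicate 2 alone (0.186 CPM).

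**Figure D3:**
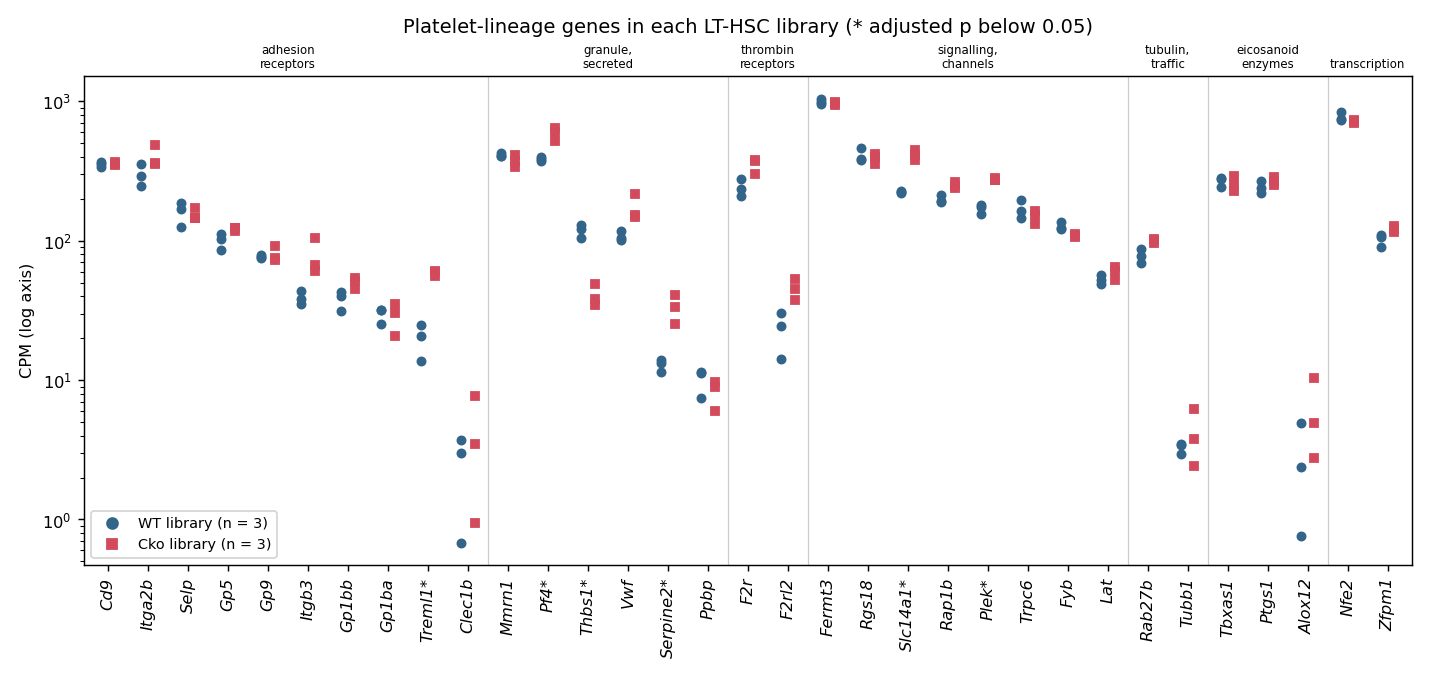
CPM (log axis) of the 33 tested genes in each WT (circles, n = 3) and Cko (squares, n = 3) library, grouped by role, with an asterisk on the 6 called genes. Treml1, Pf4, Serpine2, Slc14a1 and Plek have every Cko point above every WT point, and Thbs1 has every Cko point below.

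Sequence just before the annotated transcription start was examined for members that were called higher and for Ppbp, which neighbours Pf4. RefSeq promoters on GRCm38.p6 matched 27 of the 34 members. Of the 5 genes called higher, Pf4, Plek, Serpine2 and Treml1 were matched. The 250 bases before each start are shown 5′ to 3′ on the gene's strand, and capitals mark a match to any of 5 motifs searched on both strands: GATAA (GATA factors), TGTGGT (RUNX factors), AGGAAG (ETS factors), TGAGTCA (shared by NF-E2 and AP-1) and the CArG box of SRF. The windows are chr5:90772185-90772434 (plus strand) for Pf4, chr5:90768268-90768517 (plus) for Ppbp, chr17:48359666-48359915 (plus) for Treml1, chr1:79858666-79858915 (minus) for Serpine2 and chr11:17008719-17008968 (minus) for Plek.
Pf4: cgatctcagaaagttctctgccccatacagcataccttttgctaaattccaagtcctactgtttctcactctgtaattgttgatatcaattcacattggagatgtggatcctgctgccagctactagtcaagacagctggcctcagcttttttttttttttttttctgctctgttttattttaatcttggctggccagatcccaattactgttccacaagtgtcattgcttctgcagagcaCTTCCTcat
Ppbp: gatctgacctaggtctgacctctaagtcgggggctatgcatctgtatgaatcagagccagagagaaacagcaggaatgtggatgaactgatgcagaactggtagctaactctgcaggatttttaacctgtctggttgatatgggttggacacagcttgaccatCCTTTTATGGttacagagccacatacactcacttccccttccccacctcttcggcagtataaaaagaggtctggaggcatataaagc
Treml1: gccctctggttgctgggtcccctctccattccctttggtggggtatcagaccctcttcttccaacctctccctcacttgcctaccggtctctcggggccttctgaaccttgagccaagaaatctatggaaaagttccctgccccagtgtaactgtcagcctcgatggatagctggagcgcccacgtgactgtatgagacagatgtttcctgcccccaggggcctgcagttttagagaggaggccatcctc
Serpine2: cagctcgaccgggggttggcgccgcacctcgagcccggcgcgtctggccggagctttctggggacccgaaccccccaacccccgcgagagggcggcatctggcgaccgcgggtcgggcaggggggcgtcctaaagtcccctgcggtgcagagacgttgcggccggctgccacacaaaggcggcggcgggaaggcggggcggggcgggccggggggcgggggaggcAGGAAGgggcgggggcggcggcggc
Plek: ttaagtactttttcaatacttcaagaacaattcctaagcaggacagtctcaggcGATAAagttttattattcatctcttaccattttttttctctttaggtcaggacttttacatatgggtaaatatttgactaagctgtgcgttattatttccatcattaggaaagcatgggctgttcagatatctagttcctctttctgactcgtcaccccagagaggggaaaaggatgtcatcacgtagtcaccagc
Pf4 and Serpine2 held the ETS letters, at 9 to 4 and 25 to 20 bases before the start. Plek held GATAA at 196 to 192 bases before its start, Ppbp held a CArG box at 87 to 78 bases, and Treml1 held none of the 5. For Plek, unlike the others shown, the bases after the start were not found in a GENCODE transcript of the gene, so its positions are less certain. Among all 27 member promoters, AGGAAG was found in 13 (48.1%, against 29.5% of 32851 promoters of the same length), GATAA in 9 (33.3%, against 22.6%) and TGTGGT in 3 (11.1%, against 14.0%). TGAGTCA was found in 2 (7.41%, against 4.46%), which were F2r and F2rl2, and the CArG box in 2 (7.41%, against 1.47%). These are letter matches and not measured binding, and the 5 called-higher genes did not share 1 motif: of the 4 with a sequence, 2 held AGGAAG and 1 held GATAA.

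Among the adhesion receptors, 1 of 10 tested genes rose, none fell and 9 were not called. Treml1 encodes TLT-1, a receptor stored in platelet α-granules and brought to the surface on activation (gene ID 71326, chr17:48359916-48367176, mm10). It was at 20.7, 13.7 and 25.0 CPM in WT and 60.9, 59.8 and 56.2 CPM in Cko. Every Cko library lay well above the WT libraries, and the Cko values were closer together than the WT values. Treml1 rose 3.07-fold, from 19.8 ± 5.73 to 59.0 ± 2.46 CPM (SD, n = 3 each), with a log2 fold change of 1.62 (SE 0.22, limma adjusted p = 0.00791). This was the largest log2 fold change among the 33 tested members. Leaving out Cko replicates 1, 2 and 3 in turn gave limma adjusted p = 0.0556, 0.0685 and 0.0542 with log2 fold changes of 1.59, 1.61 and 1.65.

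The fibrinogen receptor is built from Itga2b, the αIIb (CD41) chain, and Itgb3, the β3 chain. Itgb3 (chr11:104608000-104670476) was at 43.7, 35.1 and 37.9 CPM in WT and 105, 61.0 and 66.9 CPM in Cko. The groups did not overlap, but Cko replicate 1 stood far above the other Cko libraries. Its log2 difference of 0.96 (SE 0.21) did not pass the test (limma adjusted p = 0.0902), although it did with a filter of 5 CPM (0.0374) and on log2(CPM + 1) (0.0451). Itga2b (chr11:102453297-102469883) was at 249, 293 and 357 CPM in WT and 488, 363 and 356 CPM in Cko. Only Cko replicate 1 was clearly above WT, the other Cko libraries lay level with WT replicate 3, and the log2 difference of 0.43 (95% interval 0.10 to 0.75) was not called.

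The GPIb-IX-V complex, the receptor for von Willebrand factor, has 4 chains, and none was called (limma, with Gp1bb and Gp5 at unadjusted p = 0.0352 and 0.0341, and none by voom). Gp1ba, its ligand-binding chain, was at 32.0, 25.3 and 32.1 CPM in WT and 35.3, 30.5 and 20.6 CPM in Cko. Gp9 was at 76.4, 75.3 and 78.6 CPM against 92.5, 72.6 and 75.5. Both genes overlapped between genotypes, with log2 differences of -0.08 (95% interval -0.59 to 0.44) and 0.06 (-0.23 to 0.35). Gp1bb, whose product is disulphide-linked to that of Gp1ba, was at 31.1, 40.2 and 42.6 CPM in WT and 54.1, 51.7 and 45.2 in Cko. Gp5 was at 85.4, 103 and 111 CPM against 124, 123 and 118. For these 2 chains each Cko library exceeded each WT library by small margins, with log2 differences of 0.42 and 0.30. The Gp1bb exons overlap the neighbouring Sept5 gene over 1902 bases and Gm49601 over 867 bases on the same strand in GENCODE, so its reads are uncertain where counting could split them, and Septin5 itself was at 0.792 to 2.11 CPM.

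Cd9, a tetraspanin, was at 353, 365 and 337 CPM in WT and 355, 367 and 348 CPM in Cko, and its log2 difference had a 95% interval of -0.13 to 0.17. Selp, which encodes P-selectin, was at 125, 169 and 186 CPM in WT and 146, 146 and 171 CPM in Cko, an interval of -0.36 to 0.29. Neither gene separated the genotypes. Clec1b, the podoplanin receptor CLEC-2, varied over 0.678 to 7.66 CPM across the 6 libraries, too widely to resolve a difference (95% interval -1.43 to 2.57).

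Among the granule and secreted proteins, 2 of 6 tested genes rose, 1 fell and 3 were not called. Thbs1 encodes thrombospondin 1, an adhesive glycoprotein of platelet α-granules that is also made by macrophages and stromal cells (gene ID 21825, chr2:118111876-118127133). It was at 129, 122 and 105 CPM in WT and 48.8, 38.3 and 34.5 CPM in Cko. The highest Cko value was below the lowest WT value by a wide margin. Thbs1 fell 2.95-fold, from 119 ± 12.4 to 40.5 ± 7.38 CPM (SD, n = 3 each), and its log2 difference was -1.56 (SE 0.16, limma adjusted p = 0.00115). Of the 6 called members it was the only 1 called in all 15 alternative fits, with adjusted p from 0.000142 to 0.0379. Stromal markers summed to 22.9 to 25.0 CPM in WT and 36.9 to 46.3 CPM in Cko. Of these, 1 of 4 tested genes was called higher, against 0.407% of all tested genes. The monocyte and macrophage sums were also higher in Cko. The part of these cells in the Thbs1 value was not tested. GENCODE places exons of Gm29233 on the opposite strand over 187 bases of Thbs1, and whether the counting used strand is not given in the sources used here.

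Pf4 encodes platelet factor 4 (CXCL4), an α-granule chemokine that megakaryocytes also release in the marrow (gene ID 56744, chr5:90772435-90773383). It was at 400.2, 385 and 371 CPM in WT and 522, 649 and 606 CPM in Cko. WT libraries were tightly grouped and all Cko libraries were higher. Pf4 rose 1.53-fold, from 385 ± 14.7 to 592 ± 64.4 CPM (SD, n = 3 each) or by a log2 value of 0.62 (SE 0.08, limma adjusted p = 0.00742), and the adjusted p was 0.0586 without Cko replicate 3. Its neighbour Ppbp, a related chemokine gene (chr5:90768518-90770063), was at 11.5, 7.49 and 11.3 CPM in WT and 9.74, 8.88 and 5.97 CPM in Cko. The Ppbp values overlapped and its log2 difference of -0.30 (95% interval -1.03 to 0.43) was not called. A difference between the responses of these neighbours was not tested.

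Serpine2 encodes protease nexin 1, a serpin that inhibits thrombin and is stored in α-granules (gene ID 20720, chr1:79794317-79858665). It was at 11.5, 13.2 and 14.0 CPM in WT and 41.1, 33.4 and 25.2 CPM in Cko. All Cko libraries were above WT, with a broad spread among them. Serpine2 rose 2.53-fold, from 12.9 ± 1.31 to 33.2 ± 7.97 CPM (SD, n = 3 each) or by a log2 value of 1.34 (SE 0.23, limma adjusted p = 0.0337). This was the least secure call: leaving out any 1 library gave adjusted p = 0.0501 to 0.156, with log2 fold changes of 1.17 to 1.53, and with replicate number as a block it was 0.108.

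Vwf, the von Willebrand factor gene and a marker of platelet-biased stem cells (chr6:125552948-125686679), was at 118, 101 and 104 CPM in WT and 217, 149 and 152 CPM in Cko. The groups did not overlap and Cko replicate 1 was again the highest library. Its log2 difference of 0.66 (SE 0.15) was not called (limma adjusted p = 0.109), and it was called in 1 of 15 alternative fits, with a filter of 5 CPM (0.0448). Mmrn1, the gene of the factor V carrier multimerin 1, was at 428, 405 and 407 CPM in WT and 375, 336 and 413 CPM in Cko, overlapping, with a log2 difference of -0.15 (95% interval -0.33 to 0.04).

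Neither thrombin receptor gene passed the test (0 of 2 by limma, both with unadjusted p below 0.05, and 0 by voom), although each separated the genotypes. F2r encodes PAR1 (chr13:95601780-95618466), and was at 279, 209 and 234 CPM in WT and 377, 302 and 376 CPM in Cko. F2rl2, its neighbour on chromosome 13 (chr13:95696920-95702768), encodes PAR3, the cofactor through which mouse platelets respond to thrombin. It was at 14.3, 30.1 and 24.3 CPM in WT and 45.3, 37.7 and 53.0 CPM in Cko. For both genes the lowest Cko library stood above the highest WT library. The log2 differences were 0.55 (SE 0.12, limma adjusted p = 0.104) for F2r and 1.04 (SE 0.27, adjusted p = 0.187) for F2rl2. F2r was called in 4 alternative fits, with a filter of 5 CPM (0.0406), with replicate number as a block (0.0452), on log2(CPM + 1) (0.0485) and without WT replicate 1 (0.0400), and F2rl2 in none.

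Among signalling, channel and integrin adaptor genes 2 of 8 rose and none fell. Slc14a1 encodes the urea transporter UT-B, which is prominent in the erythroid lineage and is also transcribed in LT-HSC (gene ID 108052, chromosome 18). It was at 228, 222 and 222 CPM in WT and 379, 413 and 449 CPM in Cko. The WT libraries were almost identical and far below the Cko libraries. Slc14a1 rose 1.84-fold, from 224 ± 3.21 to 414 ± 35.0 CPM (SD, n = 3 each) or by a log2 value of 0.88 (SE 0.08, limma adjusted p = 0.00059), with adjusted p of at most 0.00877 when any 1 library was left out. The erythroid marker sums did not overlap either, at 63.9 to 87.0 CPM in WT and 109 to 116 CPM in Cko, and their part in the value was not tested.

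Plek encodes pleckstrin, the main protein kinase C substrate of platelets, which is also present in leukocytes (gene ID 56193, chr11:16971206-17008718). It was at 157, 175 and 179.8 CPM in WT and 281, 272 and 274 CPM in Cko. Both groups were compact and did not overlap. Plek rose 1.62-fold, from 171 ± 12.2 to 276 ± 5.01 CPM (SD, n = 3 each) or by a log2 value of 0.70 (SE 0.09, limma adjusted p = 0.0036). With any 1 library left out the adjusted p was 0.0107 to 0.0332. Neutrophil markers, at 310.3 to 325 CPM in WT and 1160.1 to 1361 CPM in Cko as a sum, stood higher in the same Cko libraries, and their part in the Plek value was not tested. Exons of Cnrip1 lie on the opposite strand over 166 bases of Plek, and opposite-strand exons also cover 30 to 438 bases of Cd9, Selp, Fermt3, Fyb, Ptgs1 and Tbxas1, whose reads cannot be told apart from theirs without strand.

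Fermt3, Rap1b and Fyb, whose products act on integrins, were not called. Fermt3 encodes kindlin-3, which activates integrins in all blood cells, and was the member with the highest CPM, at 961 to 1046 in WT and 938 to 984 in Cko. Its log2 difference was narrow around 0 (95% interval -0.16 to 0.07). Rap1b, the small GTPase upstream of αIIbβ3, was at 212, 193 and 191 CPM in WT and 263, 247 and 241 CPM in Cko. Here the groups were separate, with a log2 difference of 0.33 (SE 0.08) that was not called (limma adjusted p = 0.167). Fyb, an adaptor that links receptors to integrins, was at 137, 123 and 122 CPM in WT and 108, 107 and 111 CPM in Cko, separate in the opposite direction, with a log2 difference of -0.22 that was not called (adjusted p = 0.489). Rgs18, a brake on G-protein signalling in platelets, Trpc6, a cation channel, and Lat, the adaptor of the collagen receptor pathway and of T cells, overlapped between genotypes, with log2 differences of -0.06, -0.17 and 0.16.

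Tubulin and vesicle traffic genes, eicosanoid enzymes and transcription regulators held no called member (0 of 7 by limma and by voom, and Rab27b alone had an unadjusted p below 0.05). Tubb1 encodes the β1-tubulin of proplatelets and was at 2.97, 3.45 and 3.49 CPM in WT and 2.43, 3.75 and 6.23 CPM in Cko. Its levels were low and overlapping. Rab27b, a GTPase of granule release, was at 87.3, 68.9 and 78.3 CPM in WT and 96.3, 103 and 101 CPM in Cko, separate but not called (limma adjusted p = 0.326). Of the enzymes that act on arachidonic acid, Ptgs1 (cyclooxygenase 1) was at 218 to 267 CPM in WT and 249.9 to 286 CPM in Cko, and Tbxas1 (thromboxane synthase) at 242 to 283 and 226 to 292 CPM. Alox12, the platelet 12-lipoxygenase, was at 4.92, 2.39 and 0.757 CPM in WT and 10.3, 4.96 and 2.75 CPM in Cko. It had the largest log2 difference of any member that was not called (1.32), with overlapping libraries and a 95% interval of -0.35 to 2.99.

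Nfe2, the transcription factor needed for platelet release, was abundant and overlapped between genotypes, at 729, 742 and 842 CPM in WT and 703, 725 and 735 CPM in Cko (log2 difference -0.09, 95% interval -0.24 to 0.05). Zfpm1 encodes FOG-1, the cofactor of GATA1, and was at 90.0, 107 and 109.8 CPM in WT and 128, 115 and 122 CPM in Cko. The Zfpm1 groups were separate, with a log2 difference of 0.25 (95% interval -0.01 to 0.51, limma adjusted p = 0.49) that was not called.

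The libraries of a group did not weigh equally in these patterns. Of the 33 tested members, 17 were highest in Cko replicate 1, 4 in Cko replicate 2, 3 in Cko replicate 3, 6 in WT replicate 1, 3 in WT replicate 3 and 0 in WT replicate 2. The same count was not made over all tested genes, so whether this is particular to the members is not known. Among the 14 members with all Cko libraries above WT, 10 peaked in Cko replicate 1, among them Itgb3, Vwf, Serpine2 and Treml1. Slc14a1 and F2rl2 peaked in Cko replicate 3 and Pf4 and Rab27b in Cko replicate 2. The neutrophil marker sum was lowest in Cko replicate 1 of the Cko libraries (1160.1 CPM) and highest in Cko replicate 3 (1361 CPM), and the part of either in the other was not tested. Without Cko replicate 1 the median log2 difference of the tested members was 0.28. Within a group the ratio of the highest to the lowest library had a median of 1.22 in WT and 1.24 in Cko over the tested members.

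**Figure D4:**
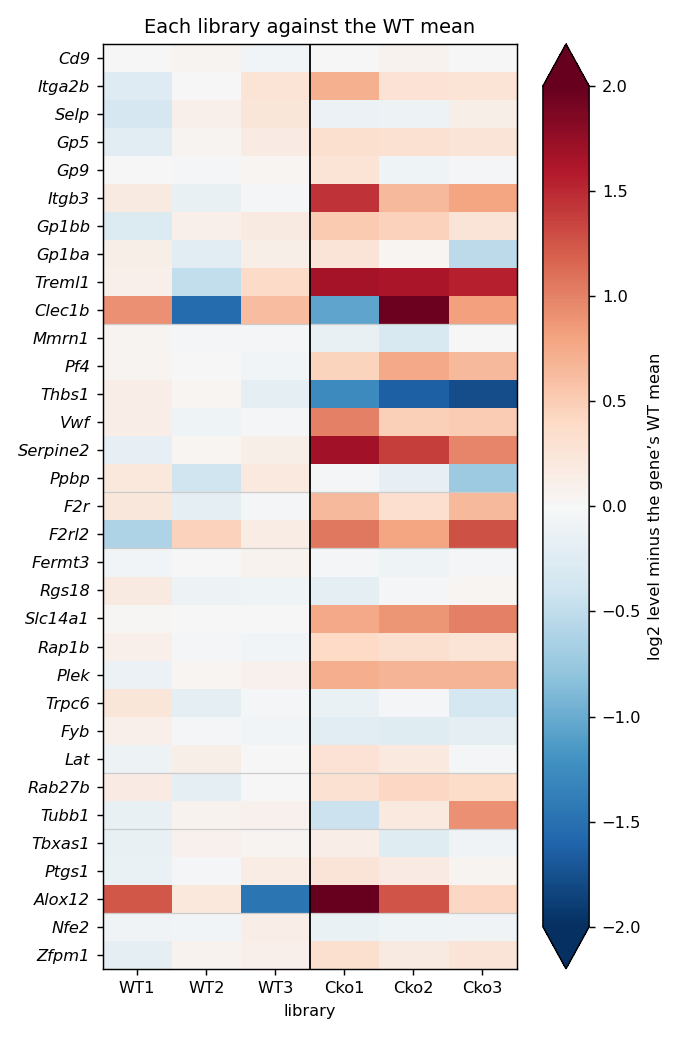
Log2 level of each tested gene in each library minus the gene's mean over the 3 WT libraries (red above, blue below), ordered by role. Thbs1 is blue in each Cko column, Treml1, Serpine2, Slc14a1, Plek and Pf4 are red in each, and Itgb3, Vwf and Itga2b are deepest in Cko1.

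Other genes of the pathway were taken from 5 lists, in which 132 of 140 genes were tested, 1 was called higher and none lower (29 had an unadjusted p below 0.05, and voom called 2). The 1 call is 0.758% of the genes tested, beside 0.699% of all tested genes called in either direction. The 29 genes with an unadjusted p below 0.05 are 22.0% of those tested, against 10.3% of all tested genes. All Cko libraries lay above all WT libraries for 20 of the 132 genes (15.2%, against 8.52% of all tested genes) and below them for 15 (11.4%, against 8.01%). The called gene was F13a1, which encodes the A chain of coagulation factor XIII, a product of platelets and also of monocytes and macrophages. It was at 0, 0 and 0.0917 CPM in WT and 23.6, 31.8 and 22.5 CPM in Cko (limma adjusted p = 0.00246, and 0.0782 and 0.0586 without Cko replicates 2 and 3). The whole WT group held 4 F13a1 reads. Ly6c2, a monocyte marker chosen after its values were seen, was at 0.390 to 1.04 CPM in WT and 38.7 to 43.9 CPM in the same Cko libraries. The whole monocyte and macrophage list differed less, with sums of 586 to 603 CPM in WT and 813 to 919 CPM in Cko. Of its 10 tested genes 2 were called higher, where 0.407% of all tested genes were. All Cko libraries lay above all WT libraries for 7 of the 10 and below for 1. The part of monocytes in the F13a1 value was not tested. The other 28 of the 29 tested genes of granule cargo, biogenesis and secretion were not called by limma, while voom called 2 of the 29 and 10 had an unadjusted p below 0.05. The second gene called by voom was Tgfb1, which encodes a cytokine stored in platelet granules, with a log2 difference of 0.64 and a limma adjusted p of 0.0513.

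In the thrombopoietin receptor pathway and its transcription factors, 0 of 25 genes were called by limma or voom, with 8 at unadjusted p below 0.05. The 2 smallest adjusted p-values were those of Lmo2, a scaffold of the GATA and TAL1 complex, at 1286, 1328 and 1338 CPM in WT and 1047, 1245 and 1154 CPM in Cko, and of Meis1, a homeobox factor, at 499.9, 521 and 489 against 438, 412 and 455. Their log2 differences were -0.20 and -0.21 (limma adjusted p = 0.283 for each). Gata1, the master regulator of megakaryocyte and erythroid genes, was chosen after its values were seen and was at 86.7, 93.7 and 92.9 CPM in WT and 123, 111 and 112 CPM in Cko, separate but not called (limma adjusted p = 0.286).

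Other platelet surface receptors (0 of 22 called by limma or voom, 4 at unadjusted p below 0.05) were led by the purinergic receptors. P2ry1, an ADP receptor, was at 41.6, 25.7 and 26.3 CPM in WT and 49.5, 47.7 and 41.9 CPM in Cko, and P2rx1, an ATP-gated channel, at 113, 74.3 and 94.0 against 133, 123 and 118. In both genes the Cko libraries lay just above the WT libraries, with log2 differences of 0.61 and 0.43, and neither passed (limma adjusted p = 0.337 and 0.357). Among receptor signalling and integrin activation genes (0 of 30 by limma or voom, 5 at unadjusted p below 0.05), Prkca, a protein kinase C, was at 37.3, 31.0 and 26.6 CPM in WT and 53.5, 52.4 and 53.2 CPM in Cko. The Prkca groups did not overlap and the log2 difference of 0.76 was not called (limma adjusted p = 0.0976). Vav3, an exchange factor for Rac, had a difference of 0.43 (adjusted p = 0.357).

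Cytoskeletal and proplatelet genes had 0 of 26 called by limma or voom and 2 at unadjusted p below 0.05. In this list 0 genes had all Cko libraries above WT and 5 had all below. The other 4 lists, of 22 to 30 tested genes, had 5 above and 1 to 3 below each. Over all tested genes 8.52% lay above and 8.01% below, and a difference between the lists was not tested. Mylk, the myosin light chain kinase, was at 32.2, 32.8 and 32.8 CPM in WT and 10.1, 23.9 and 15.3 CPM in Cko. The 3 WT libraries were nearly equal and the Cko libraries were lower and scattered, and the log2 difference of -1.08 was not called (limma adjusted p = 0.2). Actn1, which encodes α-actinin 1, had a difference of -0.76 (adjusted p = 0.416).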

How the data were processed

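The data are 6 RNA-seq libraries of sorted LT-HSC, 3 WT and 3 Cko, in a table the authors deposited as log2 values for 27179 genes. HISAT2, featureCounts, FastQC and limma were used with build mm10, per the submitters' processing notes. Tool versions, strand setting and multimapping rules: not given in the sources used here. Treating each deposited value as log2 CPM of reads plus 0.5 gave whole reads for 100.0% of values (tolerance 0.01), 36747729 to 43743795 per library. CPM in the text are those reads over the effective library size. RefSeq (GRCm38.p6) named 25275 gene IDs and left 1904 unnamed. Exon lengths and overlaps came from GENCODE M21 basic.

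Genes with log2 CPM of 0 or more in at least 3 libraries (13018) entered limma 3.58.1 (R 4.3.3) with a mean-variance trend and no block, on the deposited values. Benjamini-Hochberg adjustment ran over all of them, with calls at 0.05. The code was tested on simulated data. No 2 libraries agreed within sampling noise (chi-square per degree of freedom at least 40.31). The members and gene lists were chosen with earlier results of these data known. Library values are printed for called members, the 3 uncalled members of largest change, defining markers and Vwf, Selp, Nfe2, Zfpm1, F2r, F2rl2, Mmrn1 and Cd9, and from each further list for called genes or the 2 of smallest adjusted p. Those of Clec1b, Fyb, Rap1b and Rab27b were added after their values were seen. Alternatives were no filter, a 5 CPM filter, median centring, quantile scaling, no trend, robust eBayes, log2(CPM + 1), voom on recovered reads, the replicate block, and dropping 1 library at a time.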

Additional observations from a re-analysis of the deposited data

How the results depend on the processing

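The count of member genes called higher was 5 in the reported fit, 2 with no low-value filter (Plek and Slc14a1), 8 with a filter of 5 CPM (Itgb3, F2r and Vwf in addition), 0 with no trend and 2 to 5 when each library was left out. Thbs1 was the 1 member called lower in all 15 alternative fits. With no trend the adjusted p was 0.0512 for Slc14a1, 0.099 for Plek, 0.101 for Treml1, 0.113 for Serpine2 and 0.212 for Pf4. With no filter it was 0.0573 for F13a1, 0.0599 for Treml1, 0.117 for Serpine2 and 0.127 for Pf4. The members' median log2 difference, 0.25 as reported, was 0.21 with a filter of 5 CPM and 0.16 to 0.30 with a library left out, the lowest without WT replicate 1 and the highest without WT replicate 3. Over all tested genes, 53 were higher and 38 lower as reported, 19 and 14 with no filter, 105 and 59 on log2(CPM + 1), 20 to 64 and 19 to 28 with a library left out, 15 lower with no trend and 23 lower with the replicate block. Genes of the other pathway lists called higher numbered 1 as reported, 0 with no filter, 0 to 1 with a library left out, and 2 with a 5 CPM filter, voom, log2(CPM + 1), robust eBayes, quantile scaling or median centring, the added gene being Tgfb1. Signs turned on leaving out a library for 8 members that were not called, whose log2 differences then ranged from -0.24 to 0.15 for Gp1ba, -0.0514 to 0.12 for Gp9, -0.19 to 1.38 for Clec1b, -0.0099 to 0.0479 for Cd9, -0.20 to 0.0847 for Selp, -0.11 to 0.0263 for Rgs18, -0.12 to 0.55 for Tubb1 and -0.16 to 0.0243 for Tbxas1. Deviations of same-numbered WT and Cko libraries correlated at -0.0211 to 0.0195 and not every library correlated best with its own number, which gave no sign of pairing. With 3 libraries per group this check cannot exclude pairing, and the labels do not say whether same-numbered libraries were handled together. With the replicate block 5 members were higher, F2r in place of Serpine2. The causes of these changes were not tested. Below about 10 CPM the spread between libraries was too wide to resolve changes in Clec1b, Tubb1 and Alox12.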
